A study of Rattus norvegicus with 7 samples.

Results

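Fmo2 (ENSRNOG00000003510) and Angptl4 (ENSRNOG00000007545) are metabolic genes that were chosen because their counts were higher in all 4 lungs exposed to lipopolysaccharide (LPS) than in the controls. They are 2 of the 23918 genes in the count table. Their difference between the groups is therefore a description and was not tested. Sftpd (ENSRNOG00000056001), a surfactant protein gene, is given beside them for reference only.

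RNA-sequencing was performed on whole fetal lungs of Sprague-Dawley rats. Dams received an ultrasound-guided intra-amniotic (IA) injection on embryonic day 18, and fetal lungs were sampled 24 h later. The control group (n = 3) received phosphate-buffered saline. The IA LPS group (n = 4) received 10 µg of LPS from E. coli O55:B5, a component of the bacterial outer membrane. The sample labels give the dose incompletely, and the dose in the series design is used. Neither the labels nor the methods say which lungs shared a litter, so p-values measure only the spread between these lungs. Total counts were 25031802, 26844326 and 27724374 in control lungs 1 to 3 and 28164904, 28336462, 27332669 and 27401076 in IA LPS lungs 1 to 4. A count of 3, taken as the floor of detection, corresponded to between 0.104 and 0.124 CPM, the count scaled by library size after TMM normalization.

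Fmo2 belongs to the family of flavin-containing monooxygenases. Active enzymes of this family use NADPH and a flavin to add oxygen to nitrogen and sulfur atoms of foreign compounds. Fmo2 is the main form in the lung of many mammals. Whether its product is an active enzyme in these rats was not measured. Angptl4 encodes a secreted angiopoietin-like protein that inhibits lipoprotein lipase, the enzyme that frees fatty acids from circulating triglycerides. Angptl4 is a known target of the fatty acid sensing PPAR receptors, of glucocorticoids and of hypoxia.

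IA LPS lung 4 stood apart from the other lungs. On the first principal component of log2 CPM, which carried 38.9% of the variance, its score was 71.9, against -0.186, 10.8 and -3.35 in IA LPS lungs 1 to 3 and -31.9, -22.6 and -24.6 in the controls. The study compared 3 lungs a group and did not use this lung. Tests were therefore made over 6 lungs and repeated over all 7.

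Fmo2 had CPM of 0.165, 0.111 and 0.563 in control lungs 1 to 3, close to the floor in lungs 1 and 2 only. It was 2.37, 2.18, 1.79 and 2.33 CPM in IA LPS lungs 1 to 4. All 4 IA LPS lungs lay above all 3 controls, and control lung 3 was the highest control. These levels came from 4, 3 and 16 counts in the controls and from 68, 60, 50 and 63 counts in the IA LPS lungs. The mean was 0.280 ± 0.247 CPM (SD, n = 3) in controls and 2.17 ± 0.265 CPM (SD, n = 4) with IA LPS. Counts pooled over the lungs of each group, 241 against 23, gave a ratio of 7.50 per total count, with an exact 95% interval of 4.88 to 12.1 that covers counting error only and not the spread between lungs. The fitted log2 fold change of Fmo2 was 2.88 over 6 lungs and 2.91 over 7. Control lung 3 set its size more than any other lung, and without it the value was 3.90. In order of level, IA LPS lung 1 came first, then lungs 4, 2 and 3, and the counting intervals of these 4 lungs overlapped, from 1.33 CPM at the lower end for lung 3 to 3.00 CPM at the upper end for lung 1. Among controls, the interval of lung 3 (0.322 to 0.914 CPM) overlapped those of lung 1 (0.0449 to 0.422 CPM) and, narrowly, lung 2 (0.0230 to 0.325 CPM).

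Angptl4 had CPM of 1.52, 1.74 and 2.43 in the controls and 4.80, 4.72, 4.65 and 3.66 in IA LPS lungs 1 to 4. The groups did not overlap, and the nearest lungs were control lung 3 and IA LPS lung 4. The underlying counts were 37, 47 and 69 in controls and 138, 130, 130 and 99 with IA LPS. The mean was 1.90 ± 0.471 CPM (SD, n = 3) in controls and 4.46 ± 0.533 CPM (SD, n = 4) with IA LPS. IA LPS lungs 1 to 3 were close together, at 4.72 ± 0.0782 CPM (SD, n = 3), and IA LPS lung 4 lay below them. The counting interval of IA LPS lung 4, 2.98 to 4.46 CPM, overlapped those of the other IA LPS lungs and that of control lung 3, 1.89 to 3.07 CPM. The fitted log2 fold change of Angptl4 was 1.31 over 6 lungs and 1.23 over 7, and no left-out lung of the 6 moved it outside 1.18 to 1.53.

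Sftpd, which encodes a collectin that binds microbes in the airspace, was 3.83, 3.49 and 7.0 CPM in controls and 34.6, 35.5, 17.9 and 52.8 CPM in IA LPS lungs 1 to 4. Control lung 3 was the highest control for Sftpd, Fmo2 and Angptl4 alike. Within the IA LPS group the orders differed. IA LPS lung 4 was highest for Sftpd, was second for Fmo2 and was lowest for Angptl4. IA LPS lung 3 was the lowest of its group for Fmo2 and for Sftpd, while its Angptl4 level was close to those of lungs 1 and 2. In this bulk tissue, more cells that express a gene and more RNA per cell cannot be told apart.

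**Figure D1:**
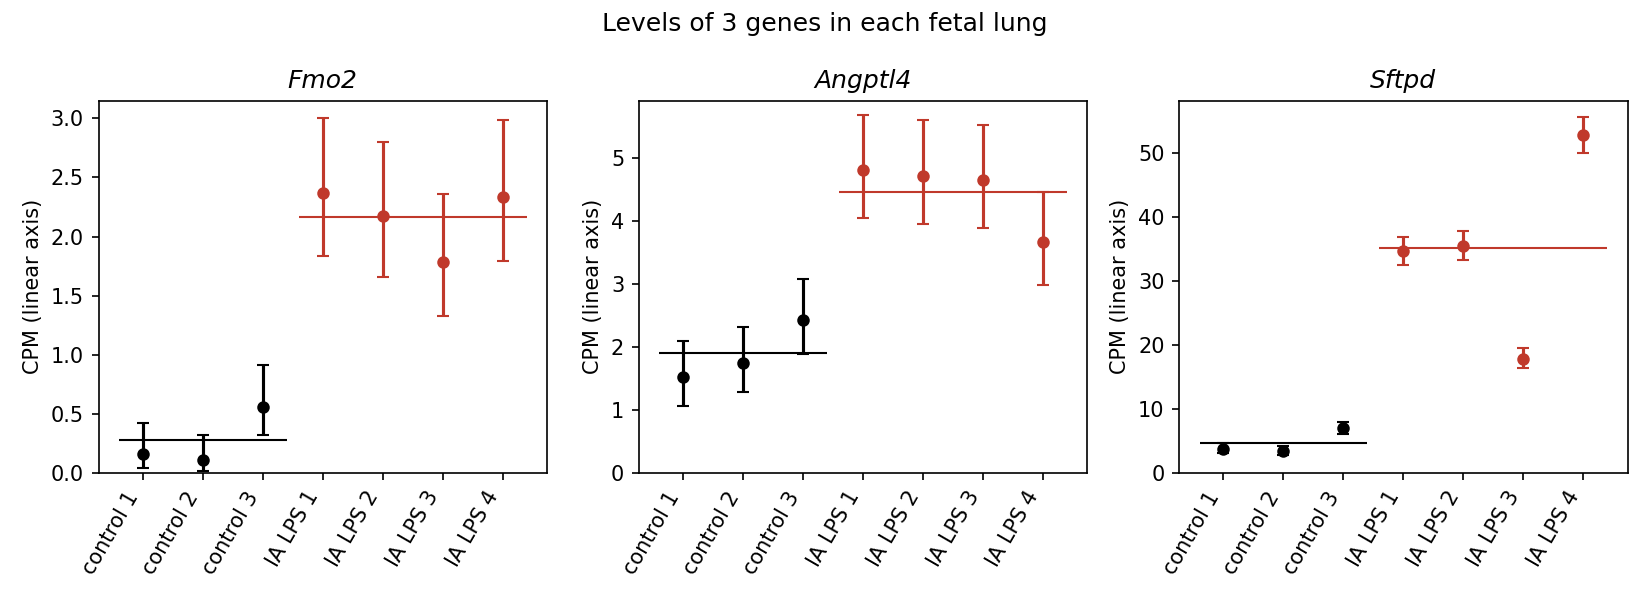
Levels of Fmo2, Angptl4 and Sftpd in CPM (linear y axis, one panel per gene) in each of 3 control lungs (black) and 4 IA LPS lungs (red). Points are lungs, vertical bars are exact 95% counting intervals and horizontal lines are group means, and in each panel all 4 IA LPS points lie above all 3 control points.

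Likeness to each gene was measured over the 7 lungs as the root mean square difference in log2 CPM, each gene centred on its own mean, among 14322 genes whose mean reached 1 CPM. Because Fmo2 and Angptl4 were chosen for the difference between the groups, genes near them share that difference by construction, and none of these likenesses was tested. The gene nearest to Fmo2 was Sftpd, at 0.39. ENSRNOG00000050110 followed at 0.53, S100a9, a neutrophil calcium-binding protein gene, at 0.54, ENSRNOG00000029478 at 0.56 and ENSRNOG00000010761 at 0.58. Sftpd was also nearest to Fmo2 over the 6 lungs, at 0.34.

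The genes nearest to Angptl4 were closer to it and of smaller fold change. ENSRNOG00000009620 came first at 0.17, then ENSRNOG00000021095 and ENSRNOG00000032596, both at 0.18, Nags, which encodes the mitochondrial enzyme that makes the activator of the urea cycle, at 0.18, and ENSRNOG00000036585, also at 0.18. Over the 6 lungs none of these 5 genes stayed among the 5 nearest, so these names depend on the inclusion of IA LPS lung 4. The 2 genes were not close to each other. At a difference of 0.91, Angptl4 ranked 63 for Fmo2, which has few near genes, and Fmo2 ranked 13114 of 14322 for Angptl4. Fmo5 ranked 6 for Angptl4, at 0.18, outside the 5 that the rule names, and 4 over the 6 lungs, at 0.13, and these ranks were chosen for mention after their values were seen.

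Of the FMO family, Fmo5 is described beside Fmo2, and it was called induced. Over all genes tested, 2.17% were called induced and 1.13% suppressed over 6 lungs (339 and 176 of 15627 genes), and 1.4% and 0.508% over 7 lungs (220 and 80 of 15750). Calls came from edgeR's quasi-likelihood test and required a 1.5-fold change, an unadjusted p below 0.05 and a Benjamini-Hochberg adjusted p below 0.1 over all genes tested. Fmo5, a family member that acts mainly on carbonyl compounds, had CPM of 1.24, 1.15 and 1.90 in controls and 3.24, 2.94, 3.32 and 3.40 in IA LPS lungs 1 to 4. All 4 IA LPS lungs lay above the controls, and control lung 3 was again the highest control. The share of all genes whose groups did not overlap is not given, so a lack of overlap is only a description here and below. Fmo5 rose with IA LPS by a log2 fold change of 1.15 ± 0.25 (SE, edgeR adjusted p = 0.0435), and by 1.17 over 7 lungs (adjusted p = 0.0703). The call was lost without control lung 1 or 2 or any of IA LPS lungs 1 to 3, where edgeR adjusted p was between 0.11 and 0.142, and it held without control lung 3 (adjusted p = 0.028). When 1 lung other than IA LPS lung 4 was left out of the 7, the Fmo5 call was lost in all 6 fits, with edgeR adjusted p between 0.111 and 0.301.

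In the GRCr8 gene order of RefSeq, Fmo2 lies on chromosome 13 in a cluster of FMO genes, with Fmo1 and Fmo6 directly beside it, and neither of these was matched to the count table. Reads that fit several FMO genes were divided between them by estimation, so values of these paralogs are uncertain to that extent.

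Of the 7 genes of the ANGPTL family list, Angptl4 and Angptl7 had an identifier. Angptl7, a secreted protein best studied in the eye, stayed between 0.109 and 0.393 CPM in the 7 lungs, with overlapping groups, and was removed by the filter on low counts. None of the 20 genes of the lipoprotein lipase system, the 11 PPAR receptors and coactivators, the 24 hypoxia target genes or the 5 hypoxia inducible factors was matched to an identifier, and they were not analysed here. In the GRCr8 order on chromosome 7, Angptl4 lies between Marchf2, Rab11b and Rplp1l1 on one side and Kank3, Rps28 and Ndufa7 on the other, and none of these 6 genes was matched to the table.

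Glucocorticoid genes were measured in part. Hsd11b1, the 1 gene matched of the 4 in the list of the glucocorticoid receptor and steroid enzymes, encodes the enzyme that regenerates active glucocorticoid inside cells. It was 38.2, 37.2 and 36.8 CPM in controls and 61.7, 49.8, 60.7 and 50.3 CPM in IA LPS lungs 1 to 4, with no overlap. Hsd11b1 rose by a log2 fold change of 0.62 ± 0.09 (SE, edgeR adjusted p = 0.0124). Over 7 lungs its log2 fold change was 0.58 (edgeR adjusted p = 0.0573), under the fold change a call requires, as it was without IA LPS lung 1 (0.56) or lung 3 (0.58). Of 19 glucocorticoid target genes, 3 were matched and neither of the 2 tested over 6 lungs was called by edgeR, although 1 had an unadjusted p below 0.05, as did 22.2% of all genes tested over 6 lungs (3467 of 15627). DESeq2 called 1 of them and limma-voom 0. Scnn1a, a subunit of the epithelial sodium channel, had a log2 fold change of 0.83 ± 0.30 (SE, edgeR adjusted p = 0.154). It rests on IA LPS lung 2, at 24.6 CPM against 11.3, 11.2 and 10.9 CPM in IA LPS lungs 1, 3 and 4, and was 0.35 without that lung. Mt1, a metallothionein that binds zinc and copper, had one of 0.40 ± 0.41 (SE, edgeR adjusted p = 0.61), with overlapping groups. Without control lung 3, the highest control at 154 CPM, the log2 fold change of Mt1 was 1.12 and it was called (edgeR adjusted p = 0.0499).

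Enzymes of foreign compound metabolism were partly matched. Among 31 phase 1 enzymes, which oxidise or reduce their substrates, 7 were matched and 4 tested. Over 6 lungs 0 were called by edgeR, DESeq2 or limma-voom, and 2 of the 4 had an unadjusted p below 0.05 with edgeR, against 22.2% of all genes tested. Their median log2 fold change was -0.31 over 6 lungs and -0.45 over 7, against 0.0029 and 0.0097 over all genes tested. Adh1, an alcohol and retinol dehydrogenase, was 280, 328 and 312 CPM in controls and 410, 459, 463 and 540 CPM in IA LPS lungs 1 to 4. Its groups did not overlap, and its log2 fold change of 0.54 ± 0.08 (SE, edgeR adjusted p = 0.0154) was under the required fold change over 6 lungs and just past it without control lung 2 (0.59, adjusted p = 0.0406) or IA LPS lung 1 (0.59, adjusted p = 0.0309), so that it was called in these 2 fits. It was also past it over 7 lungs (0.61, adjusted p = 0.0603), a call lost in 5 of the 6 fits that left out 1 of the 7 other than IA LPS lung 4 and held without IA LPS lung 1 (adjusted p = 0.0817). Cyp1b1, a cytochrome P450 of steroid and hydrocarbon metabolism, had a log2 fold change of -0.44 ± 0.10 (SE, edgeR adjusted p = 0.0445), also under it. Over the cytochrome P450 genes with a name, 14 were matched and 7 tested, and 0 were called by edgeR over 6 or 7 lungs or by DESeq2 or limma-voom over 6. Of these 7, 2 had an unadjusted p below 0.05 with edgeR, a share near the 22.2% of all genes. Their median log2 fold change was -0.21 over 6 lungs and 0.27 over 7, so it changed sign with IA LPS lung 4. Among 24 phase 2 enzymes, which attach polar groups to foreign compounds, 8 identifiers were matched and 5 tested, and 2 were called induced, against 2.17% of all genes tested. The same 2 had an unadjusted p below 0.05 with edgeR, against 22.2% of all genes. The 5 had a median log2 fold change of 0.17 over 6 lungs and 0.32 over 7.

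The 2 induced phase 2 enzymes were Sult1a1 and Mgst1. Sult1a1, a phenol sulfotransferase, was 12.7, 13.0 and 15.0 CPM in controls and 32.1, 30.2, 24.9 and 44.4 CPM in IA LPS lungs 1 to 4. Every IA LPS lung was above every control, and IA LPS lung 4 was the highest. The log2 fold change was 1.10 ± 0.12 (SE, edgeR adjusted p = 0.00693), and 1.28 over 7 lungs (adjusted p = 0.0391), and the call held without any 1 of the 6 lungs. When 1 lung other than IA LPS lung 4 was left out of the 7, it was lost without control lung 1, 2 or 3 or IA LPS lung 2, with edgeR adjusted p between 0.12 and 0.214. Mgst1, a membrane glutathione transferase, was 25.7, 27.8 and 35.5 CPM in controls and 51.9, 53.4, 40.9 and 52.3 CPM with IA LPS. Its groups did not overlap, control lung 3 was the highest control, and IA LPS lung 3 was the lowest of its group, as for Fmo2. The log2 fold change was 0.72 ± 0.14 (SE, edgeR adjusted p = 0.0325), and the call was lost without control lung 1 (adjusted p = 0.124) or IA LPS lung 2 (adjusted p = 0.107). When 1 lung other than IA LPS lung 4 was left out of the 7, the Mgst1 call was lost in 5 of 6 fits, with edgeR adjusted p between 0.114 and 0.301, and held without IA LPS lung 3 (adjusted p = 0.0756). Gstp1, a soluble glutathione transferase, was between 158 and 191 CPM in all 7 lungs and had a log2 fold change of -0.0017 ± 0.079 (SE, edgeR adjusted p = 0.993).

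**Figure D2:**
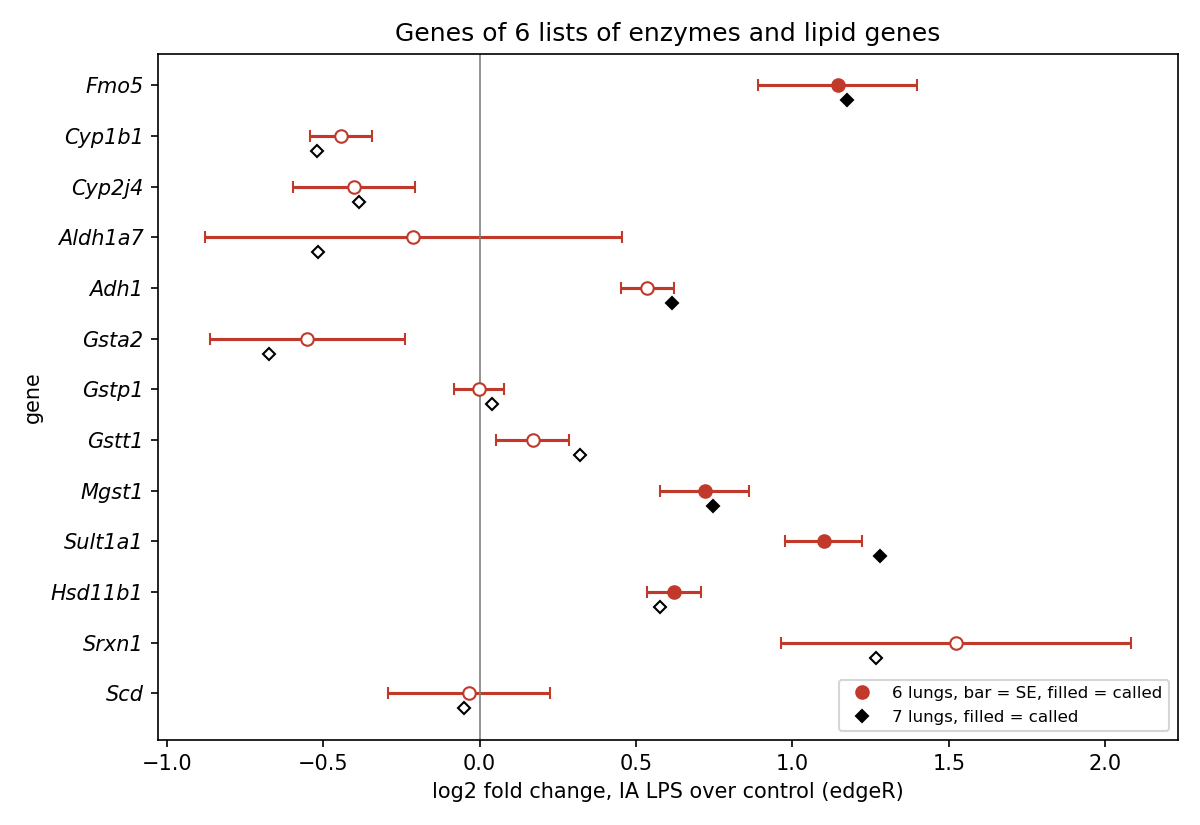
Log2 fold change of IA LPS over control (x axis) for tested genes (y axis) of the lists of FMO genes, phase 1 and phase 2 enzymes, steroid enzymes, NRF2 targets and fatty acid and surfactant lipid genes, Fmo2 left out. Circles are the fit of 6 lungs with bars of 1 SE, diamonds the fit of 7 lungs, and filled symbols mark called genes. Fmo5, Sult1a1 and Mgst1 are filled in both fits.

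Fatty acid genes were sparse among the names. Of 22 genes of fatty acid synthesis and surfactant lipids, 1 was matched. Scd, a fatty acid desaturase, was between 3.54 and 6.51 CPM in the 7 lungs, its groups overlapped, and its log2 fold change was -0.03 ± 0.26 (SE, edgeR adjusted p = 0.955). Of 36 PPAR target genes in the list, which does not hold Angptl4, Ucp3 and Cyp4a1 were matched. Ucp3, a mitochondrial carrier, had at most 3 counts and Cyp4a1, a fatty acid hydroxylase, at most 4 in any lung, and neither was tested. A further group of fatty acid activation, transport and desaturation enzymes was formed after the names were known. Of its 7 matched genes 4 were tested, and 0 were called over 6 lungs by edgeR, DESeq2 or limma-voom. With edgeR, 2.17% of all genes tested were called induced and 1.13% suppressed. In that fit 1 of the 4 had an unadjusted p below 0.05, a share near the 22.2% of all genes. The median log2 fold change of the 4 was -0.12 over 6 lungs and -0.15 over 7. Fads2, a desaturase of polyunsaturated fatty acids, was 100.8, 97.8 and 106.3 CPM in controls and 83.7, 71.7, 71.1 and 66.8 CPM in IA LPS lungs 1 to 4, with no overlap. Its log2 fold change of -0.43 ± 0.08 (SE, edgeR adjusted p = 0.0284) was under the fold change a call requires. Among 3 lipase and apolipoprotein genes, a group also formed after the names were known, 2 were tested. Over 6 lungs 0 were called by edgeR, DESeq2 or limma-voom. With edgeR 1 of the 2 had an unadjusted p below 0.05, against 22.2% of all genes tested. Srxn1, the 1 matched gene of 16 NRF2 target genes, encodes sulfiredoxin, which repairs oxidised peroxiredoxins. It was 0.165, 0.186 and 0.668 CPM in controls and 0.940, 1.31, 0.751 and 0.333 CPM with IA LPS. IA LPS lung 4 fell within the control range, and the log2 fold change of 1.52 ± 0.56 (SE) had an edgeR adjusted p of 0.158. Without control lung 3, the highest control, the log2 fold change of Srxn1 was 2.48 and it was called (edgeR adjusted p = 0.0466).

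Other genes that the study lists with Fmo2 or Angptl4 under a shared ontology term were picked as induced on these same control and IA LPS lungs 1 to 3, so their direction is no independent evidence. Under monooxygenase activity, 7 genes are listed with Fmo2, among them Fmo5 and Cmahp. In IA LPS lung 4, which that choice did not use, all 7 were above the 3 controls, against 39.1% of all genes tested (6111 of 15627), but these genes were picked as above the same controls and the genes behind that share were not, so nothing is read from it. Under negative regulation of lipase activity, 2 genes without a name are listed with Angptl4, and both were above the 3 controls in IA LPS lung 4. Over 6 such terms, this held for 20 of 21 genes.

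Markers of cell types were set beside the 2 genes, and their part in the levels of Fmo2 and Angptl4 was not tested. Nkx2-1, a defining transcription factor of lung epithelium, was between 310 and 391 CPM in the 7 lungs. Alveolar type 2 cell markers, 5 of 11 matched with Sftpd among them and Sftpc the most abundant, summed to 727, 870 and 1007 CPM in controls and 1220, 1464, 1248 and 1643 CPM in IA LPS lungs 1 to 4. Alveolar type 1 cell markers, 3 of 9 matched and led by Cldn18, summed to 311, 448 and 340 CPM in controls and 614, 525, 522 and 637 CPM with IA LPS. Both sums were higher in every IA LPS lung than in every control, and the type 1 sum is nearly all Cldn18 and Emp2. Fmo2 and Angptl4 were chosen for this same pattern, so sharing it is no evidence of a link. In IA LPS lung 4 alone, 39.1% of all genes tested were above the 3 controls. Of the 4 type 2 cell markers tested, Ctsh, a cathepsin, and Lyz2, a lysozyme, were called induced over 6 lungs. Sftpc (log2 fold change 0.55, edgeR adjusted p = 0.0669) and Napsa (0.52, edgeR adjusted p = 0.188) were not called. Of the 2 type 1 cell markers tested, Emp2, a membrane protein, and Cldn18, a tight junction protein, were called induced. Over all genes tested, 2.17% were called induced, but the matched markers are a selected set and nothing is read from the difference. Ctsh rose by a log2 fold change of 0.64 ± 0.09 (SE, edgeR adjusted p = 0.0125), and by 0.76 over 7 lungs (adjusted p = 0.0585), and fell under the required fold change without IA LPS lung 2 (0.54). Emp2 rose by 0.59 ± 0.14 (log2, SE, edgeR adjusted p = 0.0535), and by 0.63 over 7 lungs (adjusted p = 0.097), and its call held without control lung 2 (adjusted p = 0.0432) or IA LPS lung 3 (adjusted p = 0.085) and was lost without any other of the 6 lungs, with edgeR adjusted p between 0.108 and 0.183. Cldn18 rose by 0.60 ± 0.14 (log2, SE, edgeR adjusted p = 0.0466), and by 0.66 over 7 lungs (adjusted p = 0.0925), and its call held without control lung 2 (adjusted p = 0.0228) and was lost without any other of the 6 lungs, through the fold change without control lung 3 (0.54, adjusted p = 0.0974) and with edgeR adjusted p between 0.103 and 0.149 otherwise. Myeloid cell markers, 8 of 11 matched and led by Lyz2, summed to 218, 240 and 306 CPM in controls and 441, 382, 351 and 318 CPM with IA LPS. Control lung 3 was the highest control for this sum, and IA LPS lung 4 was the lowest of its group. The place of IA LPS lung 4 rests on Lyz2, which is also on the type 2 cell list. Without Lyz2 the other 7 myeloid markers summed to 80.7, 82.2 and 96.0 CPM in controls and 150.1, 138.8, 116.4 and 170.6 CPM in IA LPS lungs 1 to 4, and IA LPS lung 4 was the highest. Of the 8 myeloid markers tested, Lyz2, S100a9, Mmp8, C1qa and C1qb were called induced over 6 lungs, against 2.17% of all genes tested, and all 8 had an unadjusted p below 0.05 with edgeR, against 22.2%. C1qb, a complement gene of macrophages, rose by a log2 fold change of 0.68 ± 0.12 (SE, edgeR adjusted p = 0.0206), and by 0.83 over 7 lungs (adjusted p = 0.0776), and its call held without any 1 of the 6 lungs, with edgeR adjusted p up to 0.0995. C1qa, of the same complex, rose by 0.69 ± 0.14 (log2, SE, edgeR adjusted p = 0.0339), and by 0.83 over 7 lungs (adjusted p = 0.0862), and its call was lost without control lung 1 (adjusted p = 0.126) or IA LPS lung 2 (adjusted p = 0.111). These 2 genes were the steadiest calls of the list over 6 lungs. Lyz2 rose by 0.61 ± 0.15 (log2, SE, edgeR adjusted p = 0.0618) and was not called over 7 lungs (0.45, adjusted p = 0.39), and without 1 of the 6 lungs its call held only without control lung 3 (adjusted p = 0.0194), with edgeR adjusted p between 0.104 and 0.186 otherwise. Mmp8, a neutrophil collagenase, rose by 1.85 ± 0.47 (log2, SE, edgeR adjusted p = 0.0642), and by 1.94 over 7 lungs (adjusted p = 0.097), and its call held without control lung 2 (adjusted p = 0.0558) and was lost without any other of the 6, with edgeR adjusted p between 0.115 and 0.174. When 1 lung other than IA LPS lung 4 was left out of the 7, C1qa and C1qb were called only without IA LPS lung 3 (adjusted p = 0.0702 for both), Ctsh without IA LPS lung 1 (adjusted p = 0.0887) or 3 (adjusted p = 0.0756), and Emp2, Cldn18, Lyz2, S100a9 and Mmp8 in none of the 6 fits. S100a9 was called over 6 lungs, with a log2 fold change of 1.89 ± 0.47 (SE, edgeR adjusted p = 0.059), but not over 7 (1.81, adjusted p = 0.127). Its call was lost in 5 of the 6 fits that left out 1 lung, with edgeR adjusted p up to 0.169, and held without control lung 3 (adjusted p = 0.0126).

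Of 8 markers of club and ciliated cells, Drc1, a gene of the ciliary axoneme, was matched, and club cell markers were not analysed here. Drc1 was 2.47, 2.45 and 3.38 CPM in controls and 6.02, 5.44, 4.33 and 5.66 CPM in IA LPS lungs 1 to 4, with no overlap, and was called over 6 lungs (log2 fold change 0.93 ± 0.21, SE, edgeR adjusted p = 0.0456) and over 7 (0.96, adjusted p = 0.0776). Without 1 of the 6 lungs this call was lost in 4 of 6 fits, and without 1 of the 7 other than IA LPS lung 4 in all 6. Adipocyte markers, 2 of 7 matched and led by Cfd, summed to 0.576, 0.742 and 0.739 CPM in controls and 1.57, 1.31, 1.25 and 2.15 CPM with IA LPS, again with no overlap. Cfd, which encodes complement factor D, had a log2 fold change of 0.99 ± 0.32 (SE, edgeR adjusted p = 0.117) and was called only with the stricter filter on low counts. Lep, the leptin gene, was at most 0.259 CPM in the 7 lungs. Erythroid markers, 5 of 8 matched and led by Hba-a1, summed to 16970.4, 14039 and 17167 CPM in controls and 13219, 28746, 19787 and 31149.9 CPM in IA LPS lungs 1 to 4. IA LPS lung 4 held the most, and the groups overlapped. Of the 5, 0 were called over 6 lungs by edgeR, DESeq2 or limma-voom. With edgeR 0 of the 5 had an unadjusted p below 0.05, against 22.2% of all genes tested. Cartilage and muscle markers, 4 of 8 matched and led by Col2a1, summed lower with IA LPS. The sums were 325, 305 and 289 CPM in controls and 271, 220, 214 and 182 CPM with IA LPS. Of the 4, 0 were called over 6 lungs by edgeR, DESeq2 or limma-voom. With edgeR 1 of the 4 had an unadjusted p below 0.05, a share near the 22.2% of all genes. When IA LPS lung 3 was left out of the 7, 1 of the 4 was called. The lower sums rest on Col2a1, a cartilage collagen gene. Its log2 fold change of -0.50 ± 0.07 (SE, edgeR adjusted p = 0.013) was under the fold change a call requires. Without Col2a1 the sums were 29.7, 5.19 and 18.4 CPM in controls and 81.8, 9.0, 6.11 and 11.4 CPM with IA LPS, with overlapping groups. The muscle genes Myh3 and Myl1 were far higher in IA LPS lung 1 than in any other lung. For hepatocytes 1 of 9 markers was matched. Alb, the serum albumin gene, was 64.3, 8.83 and 513 CPM in controls and 2.40, 83.6, 3.07 and 15.4 CPM in IA LPS lungs 1 to 4. Control lung 3 held the most Alb and, among controls, the most Fmo2 and Angptl4. Fmo2 was 2.37, 2.18, 1.79 and 2.33 CPM in IA LPS lungs 1 to 4. Alb is 1 of 9 hepatocyte markers, and its relation to Fmo2 and Angptl4 was not tested.

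The promoters of both genes are shown as a description only. The 2 genes were chosen for being higher in the same lungs, and their levels were not close to each other across the lungs. Each runs from 250 bases before to 50 bases after the start of the gene, 5′ to 3′ on the gene's strand, from RefSeq on GRCr8. The Fmo2 window is chr13:77777485-77777784 and the Angptl4 window chr7:15258632-15258931, both on the minus strand. Both strands were searched. Capitals mark matches to the glucocorticoid receptor core motif AGAACA, the nuclear receptor core motif AGGTCA, the hypoxia response element ACGTG and the E-box CACGTG. They also mark the C/EBP motif TTGCNNAA, the NF-kappaB motif GGGNNTTCC and the TATA box TATAAA.
Fmo2: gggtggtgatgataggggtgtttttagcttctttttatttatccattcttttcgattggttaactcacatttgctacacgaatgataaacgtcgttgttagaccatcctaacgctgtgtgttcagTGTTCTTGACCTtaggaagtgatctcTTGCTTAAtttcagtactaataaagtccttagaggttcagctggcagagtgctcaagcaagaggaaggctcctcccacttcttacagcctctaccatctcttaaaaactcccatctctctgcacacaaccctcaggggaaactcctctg
Angptl4: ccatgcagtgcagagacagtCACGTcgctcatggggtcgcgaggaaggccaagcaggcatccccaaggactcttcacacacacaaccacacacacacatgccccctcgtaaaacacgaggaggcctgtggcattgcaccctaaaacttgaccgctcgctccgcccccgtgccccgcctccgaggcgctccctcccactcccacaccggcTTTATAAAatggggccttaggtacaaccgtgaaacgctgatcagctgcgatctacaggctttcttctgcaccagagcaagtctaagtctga

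The Fmo2 window held AGAACA on the reverse strand at -125, with AGGTCA on the reverse strand directly after it at -119, and TTGCNNAA at -99. These motifs occur in 20.7%, 16.2% and 10.6% of the 33469 promoters of this length. The Angptl4 window held ACGTG on the reverse strand at -230 (19.3% of promoters) and TATAAA on the forward strand at -39 (14.2%), with an overlapping TATAAA on the reverse strand at -41. CACGTG (6.42% of promoters) and GGGNNTTCC (5.92%) were in neither window, and no motif was in both. The GC content was 43.3% for Fmo2 and 58.3% for Angptl4, against a median of 51.7% over all promoters. A match is a description of letters in this window and not a bound site.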

How the data were processed

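The deposited values are estimated counts that the authors obtained from the reads with kallisto on rat genome build rno6.0 and summed to genes with tximport, without normalization. Versions and annotation are not given in the sources used here. The counts were rounded, filtered with filterByExpr and compared with edgeR 4.0.16 (R 4.3.3) after TMM normalization, with condition as the only term. DESeq2 1.42.0 and limma-voom (limma 3.58.1) were alternatives, as were other filters, size factors, all 7 lungs, each lung left out and the replicate number as a block. The test was checked on simulated counts. Log2 CPM used a prior count of 2. Total counts were between 25031802 and 28336462 per lung, and no libraries held identical values.

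Gene names came from the study's supplementary sheets, which paired 2050 of 23918 identifiers with a name, nearly all from sheets of genes past a fold change in placenta. Named genes are therefore a selected set, and 56 of 312 list symbols were matched. Members, lists and the named genes were chosen with earlier results of these data known. The named genes were the members, matched FMO and ANGPTL genes, called genes of the lists (at most 6 per list), the 5 nearest genes and 3 neighbours on either side, and enzyme families were added after the names were known. Further list genes are given only within counts, sums or figures, and a gene of the lists is not reported here.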

Additional observations from a re-analysis of the deposited data

Results flagged for a closer look

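A gene is given here where the gap between 1 of the 4 IA LPS lungs and the nearest of the other 3, as a share of the range of the 4, passed the 95% critical value of Dixon's test. Genes looked at were all named or matched list genes above 3 counts in at least 1 IA LPS lung. Among these 90 genes, 11 had 1 lung set apart, where chance gives about 1 group in 20, and the count was not tested.

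For Angptl4, IA LPS lung 4 (3.66 CPM) was below lungs 1 to 3 (4.80, 4.72 and 4.65 CPM), and its gap was 0.863 of the range of the group. Lung 4 was also set apart for Cyp39a1 (3.18 CPM against 1.95, 2.07 and 2.04 CPM, gap 0.904) and Cyp4v3 (30.1 CPM against 22.4, 22.4 and 20.9 CPM, gap 0.839), where it was the highest. For Mgst1, IA LPS lung 3 (40.9 CPM) was below the others (51.9, 53.4 and 52.3 CPM), with a gap of 0.874.

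IA LPS lung 2 was above lungs 1, 3 and 4 for Scnn1a (24.6 CPM against 11.3, 11.2 and 10.9 CPM, gap 0.969), Alb (83.6 CPM against 2.40, 3.07 and 15.4 CPM, gap 0.84), Aldh1a3 (4.25 CPM against 2.75, 2.61 and 2.85 CPM, gap 0.853) and Cyp2d2 (0.689 CPM against 0, 0.0715 and 0.0740 CPM, gap 0.893). IA LPS lung 1 was above lungs 2 to 4 for Myh3 (46.2 CPM against 1.92, 1.93 and 1.37 CPM, gap 0.987), Myl1 (20.9 CPM against 1.60, 1.11 and 0.925 CPM, gap 0.966) and Cyp2w1 (6.44 CPM against 0.0726, 0.608 and 0.185 CPM, gap 0.916).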

How the results depend on the processing

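Both genes were chosen for higher counts in every IA LPS lung, which fixes their direction, so only their size is compared here. The log2 fold change of Angptl4 stayed between 1.10 and 1.53. For Fmo2 it ranged from 2.49 without control replicate 2 to 3.90 without control replicate 3, and was 3.94 without control replicate 3 over 7 lungs. With 3 to 16 counts per control, its size is set by few reads, and a fold change of Fmo2 is less certain than one of Angptl4.

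Over all 7 lungs 220 genes were called induced and 80 suppressed, against 339 and 176 over 6. Leaving out 1 of the 6 lungs gave 150 (without control 1) to 384 (without control 3) induced and 67 (without control 1) to 177 (without control 3) suppressed genes, and without IA LPS 2 the counts were 170 and 84. Of the 41 listed genes tested, 13 were induced (31.7%, against 2.17% of all genes), and 3 (without IA LPS 2) to 14 (without control 3) when 1 lung was left out, with 4 without control 1 and 7 without IA LPS 1 or IA LPS 3. Listed genes could be matched only by names drawn nearly all from genes past a fold change in placenta. The lists were also written with earlier results of these data known, so nothing is read from the higher share. Leaving lungs other than IA LPS 4 out of the 7 was chosen after seeing the data. It gave 1 induced and 1 suppressed gene without control 1, 1 and 0 without control 2, 2 and 2 without control 3, 126 and 70 without IA LPS 1, 1 and 0 without IA LPS 2, and 127 and 39 without IA LPS 3. Listed genes called induced were then 0, 0, 0, 3, 0 and 5, with 1 suppressed without IA LPS 3. The cause was not tested. Over 6 lungs, 0 of the 5 genes nearest to Angptl4 remained among the 5.

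With a replicate block the counts were 267 and 150, and the log2 fold changes 3.01 for Fmo2 and 1.34 for Angptl4. Deviations of same-numbered lungs correlated at 0.172, -0.0957 and -0.205 across genes, and not every lung correlated best with its own number. With 3 lungs a group, these values cannot show whether same-numbered lungs shared a litter or a batch. Of 27 single genes, 513 values under the alternatives held 228 calls lost and 9 gained.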
